A study of Mus musculus with 12 samples.

Results

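The small RNAs of TM4 cells treated with Compound C (CC) were compared with those of non-treated TM4 cells (Ctrl). The comparison rests on 4 of the 12 small RNA libraries of the series, 2 of Ctrl and 2 of CC, chosen by their labels, and uses every class of RNA that was counted in them. TM4 is an established line of mouse Sertoli cells, the supporting cells of the testis, and was grown in DMEM with fetal bovine serum. CC cells were given Compound C at 10 µM for 12 h and Ctrl cells were not. The labels name no vehicle for Ctrl and do not say whether the 2 libraries of a group came from separate cultures, so the p-values measure the spread between these libraries, which may be technical. A further 2 libraries of TM4 cells that overexpressed Ang, the gene of the ribonuclease angiogenin, entered the tests through the shared estimate of the spread and the filter on low counts. Their levels are not compared here. The remaining 6 libraries are of sperm from mice on either diet and were not used here.

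Compound C, also called dorsomorphin, inhibits AMPK, the kinase that senses low cellular energy, and is known to inhibit type I receptors of bone morphogenetic proteins as well. Angiogenin is known to cut mature tRNAs in the anticodon loop, which leaves a 5′ and a 3′ fragment. Fragments of tRNA (tRFs) are grouped here as in the files: tRF5 starts at the 5′ end of the mature tRNA, tRF3 ends at its 3′ end, with or without the CCA tail that cells add to each tRNA, and the class other holds the reads that reach neither end. A tRF is named by its class and by the amino acid and anticodon of its tRNA, so that tRF5 Val-CAC is the 5′ fragment of the valine tRNA with the anticodon CAC. miRNAs are cut from hairpin precursors and pair with target mRNAs through the seed, bases 2 to 8 of the mature sequence.

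The mature miRNAs below belong to precursors that the results turn on, with the seed in capitals and U as in RNA. They come from RefSeq and the build GRCm38.p6, to which the labelled build mm10 corresponds, and 19 of the 22 precursors whose level changed were matched there by name. The files count reads per precursor, so which arm was read is not known. For mir-103, mir-107 and mir-7a 1 arm is shown, and for the rest each arm that the table used holds.
miR-103-3p: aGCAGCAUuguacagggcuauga
miR-107-3p: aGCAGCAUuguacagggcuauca
miR-149-5p: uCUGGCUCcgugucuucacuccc
miR-149-3p: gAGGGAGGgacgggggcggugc
miR-183-5p: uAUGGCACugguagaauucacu
miR-183-3p: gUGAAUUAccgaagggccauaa
miR-5114: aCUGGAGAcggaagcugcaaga
miR-7a-5p: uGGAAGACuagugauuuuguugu
miR-450b-5p: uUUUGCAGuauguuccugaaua
miR-450b-3p: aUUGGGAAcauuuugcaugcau
miR-140-3p: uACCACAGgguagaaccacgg
The first pair shares its seed and differs by 1 base, G22C, given as the base of miR-103-3p, the position from the 5′ end and the base of miR-107-3p. The same miR-103-3p is cut from 2 precursors, mir-103-1 and mir-103-2, and the same miR-7a-5p from mir-7a-1 and mir-7a-2, so reads of these shared arms cannot be told apart within a pair. The opposite arms of mir-7a-1 and mir-7a-2 differ.

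Clean reads numbered 54081799 and 64038150 in Ctrl and 56567313 and 51457711 in CC. rRNA took between 6.89% and 8.58% of them, and 69.0% to 71.3% matched the genome. The RPM below are reads per 1000000 clean reads without rRNA unless another scale is named. With 2 libraries on each side, an exact two-sided permutation test cannot go below p = 0.333, so shares and summed levels were given for each library without a test.

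Reads of cytosolic tRNAs made up a like part of the libraries in both groups, and their composition differed. They numbered 27578 and 22658 RPM in Ctrl and 27205 and 26726 RPM in CC. The share of these reads in tRF5 was 39.4% and 26.4% in Ctrl and 22.4% and 7.15% in CC. Both CC libraries lay below both Ctrl libraries, and the replicates of CC differed by more than the lower Ctrl library and the higher CC library did. The share in tRF3 was 23.9% and 36.0% in Ctrl and 35.9% and 47.2% in CC, so that these groups overlapped by the narrow margin between Ctrl replicate 2 and CC replicate 1. The class other took 36.7% and 37.7% in Ctrl and 41.8% and 45.7% in CC, without overlap. Nearly all tRF3 reads carried the CCA tail, with the tailed reads alone at 23.7% and 35.8% of tRNA reads in Ctrl and 35.7% and 47.1% in CC. For each tRF3 read there were 1.65 and 0.733 tRF5 reads in Ctrl and 0.624 and 0.152 in CC. In levels, tRF5 stood at 10869 and 5972 RPM in Ctrl and 6087 and 1911 RPM in CC, which overlapped, whereas tRF3 stood at 6584 and 8147 RPM against 9753 and 12606 RPM, which did not. Wilson intervals at the 95% level were at most 0.173 percentage points wide for these shares and cover counting error only.

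**Figure D1:**
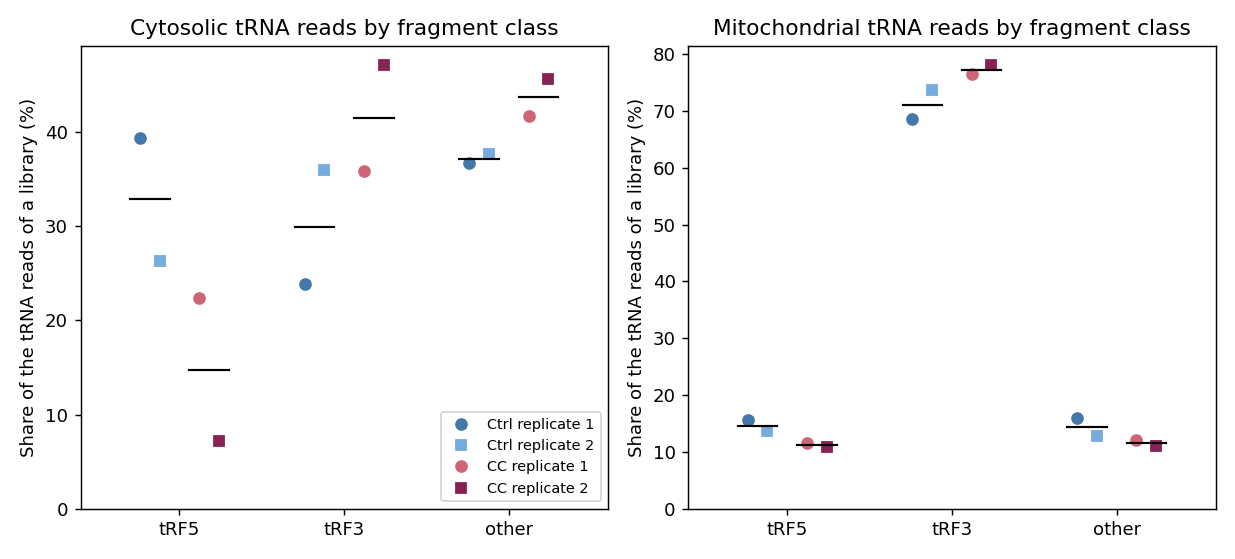
Share of the tRNA reads of a library (%, y axis) in tRF5, tRF3 and other fragments (x axis) for cytosolic tRNAs (left) and mitochondrial tRNAs (right). Points are the 4 libraries and black lines the means of the 2 libraries of a group; the tRF5 share of cytosolic tRNAs was 39.4% and 26.4% in Ctrl against 22.4% and 7.15% in CC.

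Mitochondrial tRNAs, which the mitochondrial genome encodes, also had a lower tRF5 share and a higher tRF3 share in CC, while their class other lay the opposite way from that of cytosolic tRNAs. Their tRF5 share was 15.6% and 13.6% in Ctrl and 11.5% and 10.9% in CC, and their tRF3 share was 68.5% and 73.7% against 76.4% and 78.1%. The class other took 15.9% and 12.7% in Ctrl and 12.1% and 11.1% in CC. None of these 3 classes overlapped between the groups. Of the mitochondrial tRNA reads, 78.3% and 80.2% in Ctrl and 82.9% and 81.8% in CC had no match to the genome. Most mitochondrial tRNA reads, 71.0% and 73.4% in Ctrl and 76.5% and 76.8% in CC, came from tRNA-Val-TAC. Its tRF3 stood at 2182 and 1876 reads per 1000000 clean reads in Ctrl and 2762 and 1762 in CC, with overlap and a log2 fold change of 0.16 ± 0.22 (SE). Of the 18 mitochondrial tRF5 tested, 16 had a negative log2 fold change and 5 lay below Ctrl in both CC libraries, beside 17.5% of all 103 features tested with them, with a median of -0.61 beside -0.16, and 0 passed the edgeR test described below.

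Among single tRFs, 143 with enough reads were tested with edgeR's quasi-likelihood test, where a call needed an adjusted p below 0.05 together with more than a 2-fold change. A single tRF was called, tRF5 Ser-GCT, which is 0.699% of those tested. It comes from a serine tRNA and stood at 1.24 and 1.17 RPM in Ctrl and 5.63 and 9.01 RPM in CC. The CC libraries were well apart from the Ctrl libraries and the level stayed low, at a mean of 213 reads a library. It rose by 2.599 ± 0.36 on the log2 scale (SE, adjusted p = 0.0172), and it was called in 16 of 16 alternative settings, with adjusted p-values up to 0.0488. The other end of the same tRNA, tRF3 Ser-GCT, was at 131 and 151 RPM in Ctrl and 155 and 224 RPM in CC, without overlap and not called (adjusted p = 0.296).

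By the same test 0 tRFs were called lower, while 33 higher and 6 lower tRFs had an unadjusted p under 0.05, 23.1% and 4.2% of those tested. DESeq2 with the same library sizes called 3 higher (tRF5 Ser-GCT, tRF3 Ile-TAT and tRF3 Thr-AGT) and 3 lower (tRF5 Asp-GTC, tRF5 Val-AAC and tRF5 Val-CAC), and DESeq2 with its own size factors called 2 higher and 4 lower. After ComBat-seq adjustment with the replicate number as batch, edgeR called 6 higher and 7 lower, among them tRF5 Ser-GCT, tRF3 Ile-TAT, tRF5 Val-AAC and tRF5 Val-CAC, and 43 and 7 passed the adjusted p alone. The count rested on CC replicate 1: without it, edgeR called 17 higher and 9 lower, with the lone CC library assumed to vary like the other groups. Both CC libraries were above both Ctrl libraries for 55.9% of the tRFs and below them for 8.39%. The scaling moved these levels as a whole: the median log2 fold change over all tRFs was 0.43 per clean read outside rRNA, -0.05 with TMM over tRFs and 0.04 with DESeq2's size factors, both of which centre the tRFs on each other.

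The classes differed in direction. Of the 44 tRF5 tested, 28 had a negative log2 fold change, with a median of -0.42. Of the 49 tRF3, 49 had a positive one, with a median of 0.59, though 14 of them turned negative with TMM over tRFs and 7 with DESeq2's size factors. Of the 50 in the class other, 45 were positive, with a median of 0.32, and 21 and 22 stayed positive under those scalings. For 31 of 44 isoacceptors with both ends tested, the log2 fold change of tRF5 was below that of tRF3, a comparison within the libraries that the scaling does not touch. Reads that fit several isoacceptors were divided among them, so these counts are not all of separate observations.

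**Figure D2:**
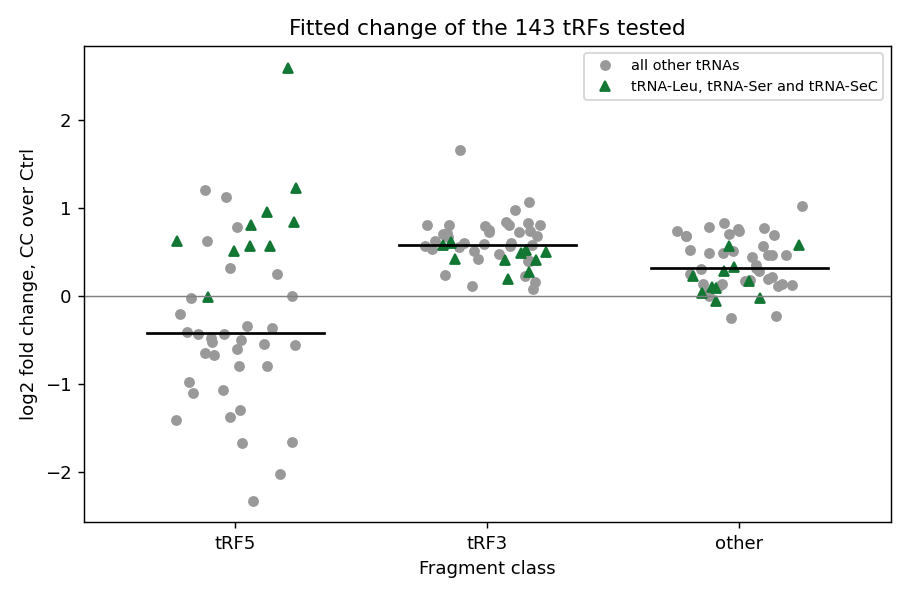
Fitted log2 fold change of CC over Ctrl (y axis) for each of the 143 tRFs tested, by class (x axis), with black lines at the class medians of -0.42, 0.59 and 0.32. Triangles mark tRNA-Leu, tRNA-Ser and tRNA-SeC, whose tRF5 lay above most other tRF5.

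The tRF5 that make up most of the class came from a few tRNAs. Gly-GCC, Gly-CCC, Lys-CTT, Val-CAC and Val-AAC together held 92.7% and 91.3% of tRF5 reads in Ctrl and 89.3% and 74.9% in CC. tRF5 Val-CAC stood at 2303 and 996 RPM in Ctrl and 634 and 181 RPM in CC. The groups did not overlap, and the replicates of each group differed by more than 2 times. Its log2 fold change was -2.02 ± 0.77 (SE, unadjusted p = 0.0317, adjusted p = 0.154), and it was called in 5 of 16 alternative settings. tRF5 Val-AAC stood at 1577 and 693 RPM in Ctrl and 338 and 116 RPM in CC, again without overlap, with a log2 fold change of -2.32 ± 0.69 (SE, unadjusted p = 0.0103, adjusted p = 0.136). Its counts and those of tRF5 Val-CAC hold fractions left by dividing reads that fit several isoacceptors, so the 2 are not fully separate observations. Single libraries moved both: without Ctrl replicate 1 the log2 fold change was -1.29 for tRF5 Val-CAC and -1.61 for tRF5 Val-AAC, and without CC replicate 1 it was -3.19 and -3.29, where both were called. The part of tRNA-Val reads that were tRF5 was 88.2% and 75.4% in Ctrl and 57.1% and 23.8% in CC, while the part that were tRF3 was 5.70% and 14.4% against 21.0% and 41.2%. The valine family as a whole took 16.0% and 9.93% of tRNA reads in Ctrl and 6.31% and 4.76% in CC.

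Glycine tRNAs had the same order with an overlap in their leading fragment. tRF5 Gly-GCC stood at 2963 and 1906 RPM in Ctrl and 1940 and 543 RPM in CC, where CC replicate 1 was level with Ctrl replicate 2. tRF5 Gly-CCC was at 761 and 505 RPM in Ctrl and 378 and 111 RPM in CC, without overlap (unadjusted p = 0.0563). Leaving out 1 library gave log2 fold changes from -2.17, without CC replicate 1, to -0.33, without CC replicate 2, for tRF5 Gly-GCC and from -2.51 to -0.74 for tRF5 Gly-CCC. The tRF5 part of all tRNA-Gly reads was 66.0% and 49.4% in Ctrl and 41.6% and 15.3% in CC. The tRF3 of Gly-TCC, the highest tRF3 on average, stood at 660 and 968 RPM in Ctrl and 1384 and 1547 RPM in CC, without overlap, with a log2 fold change of 0.85 ± 0.57 (SE, adjusted p = 0.314).

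Among lysine tRNAs, tRF5 Lys-CTT varied more between replicates than between groups. It stood at 2473 and 1353 RPM in Ctrl and 2146 and 481 RPM in CC. Replicate 2 was the lower library in each group and CC the lower within each replicate number, and the log2 fold change was -0.54 ± 0.75 (SE). tRF3 Lys-CTT was at 26.7 and 29.4 RPM in Ctrl and 32.7 and 64.9 RPM in CC. tRF3 Lys-TTT was at 81.4 and 95.8 against 112 and 173 RPM. Both lay above Ctrl without overlap and were not called by the main edgeR fit (adjusted p = 0.156 each). For glutamic acid, whose reads are mostly in the class other, other Glu-CTC was at 2044 and 1451 RPM in Ctrl and 2507 and 1433 RPM in CC, with overlap. The tRF5 part of tRNA-Glu reads was 7.26% and 7.24% in Ctrl and 4.71% and 4.68% in CC, without overlap. By isoacceptor it was 4.22% and 4.17% against 2.80% and 1.82% for Glu-CTC and 27.9% and 26.3% against 19.4% and 20.3% for Glu-TTC. tRF5 Asp-GTC, a low fragment, stood at 23.9 and 19.2 RPM in Ctrl and 10.8 and 5.50 RPM in CC, without overlap, with a log2 fold change of -1.40 ± 0.35 (SE, adjusted p = 0.131).

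A list of 10 tRNAs known to give long 5′ fragments after angiogenin cleavage was followed as a group. Of these, 9 had a tRF5 with enough reads, 9 of 9 had a negative log2 fold change, 5 lay below Ctrl in both CC libraries and 0 were called by edgeR, beside 8.39% of all tRFs below and 0.699% called. DESeq2 with the same library sizes called 3 of them lower, Asp-GTC, Val-AAC and Val-CAC, the only 3 tRFs it called lower. Of all 44 tRF5, 11 lay below. The 9 had a median of -0.97 beside -0.42 for all tRF5 and 0.43 for all tRFs tested, and all 9 stayed negative under TMM and DESeq2's size factors. Summed, the 9 stood at 10536 and 5736 RPM in Ctrl and 5775 and 1613 RPM in CC, so that CC replicate 1 overlapped Ctrl replicate 2. All tRF5 stood at 10869 and 5972 RPM in Ctrl and 6087 and 1911 RPM in CC. The list thus holds most tRF5 reads, and its fall is not a result apart from that of the class. tRNAs that the methyltransferase DNMT2 is known to modify, Asp-GTC, Gly-GCC and Val-AAC, are in that list too, and the tRF5 of these 3 had a median of -1.40.

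**Figure D3:**
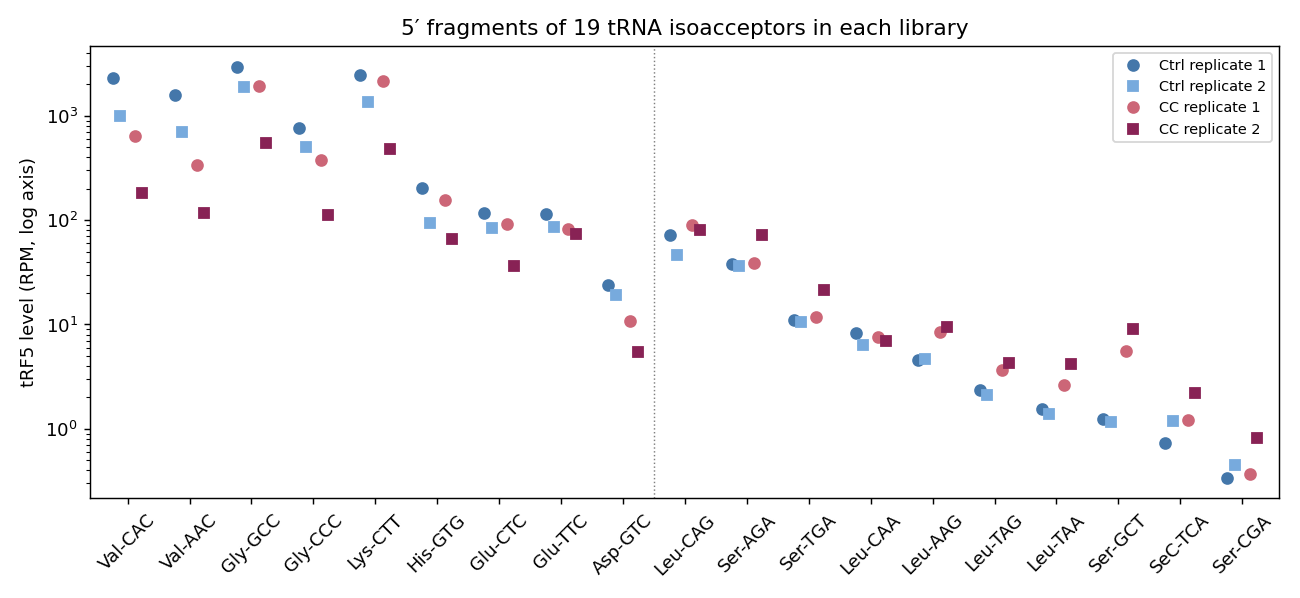
Level of tRF5 (RPM, log axis) of 19 isoacceptors (x axis) in each of the 4 libraries, with 9 of the angiogenin list left of the dotted line and all 10 tested of tRNA-Leu, tRNA-Ser and tRNA-SeC right of it. Val-CAC lay at 2303 and 996 RPM in Ctrl and 634 and 181 RPM in CC, short of a call by edgeR, and Ser-GCT, the one called by it, at 1.24 and 1.17 against 5.63 and 9.01 RPM.

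The tRF5 of leucine, serine and selenocysteine tRNAs, the tRNAs with a long variable arm, were grouped after their values were seen. Of these 10, 8 lay above Ctrl in both CC libraries and 0 below, beside 55.9% and 8.39% of all tRFs, with a median log2 fold change of 0.72. The 8 are not all separate observations, since reads that fit several isoacceptors were divided. Ser-AGA, at 38.0 and 36.0 against 38.7 and 71.4 RPM, and Ser-TGA, at 11.1 and 10.6 against 11.7 and 21.6 RPM, kept nearly 1 ratio. Of the 34 others, 4 lay above and 11 below, with a median of -0.53. Added up, tRF5 of tRNA-Leu stood at 89.4 and 61.0 RPM in Ctrl and 112 and 106 RPM in CC, and tRF5 of tRNA-Ser at 50.6 and 48.2 RPM against 56.4 and 103 RPM. Neither sum overlapped between the groups, and 9 of the 10 had a positive log2 fold change, also under TMM and DESeq2's size factors, with Leu-CAA negative in each. Beside tRF5 Ser-GCT, the largest were Leu-TAA, at 1.54 and 1.38 RPM against 2.63 and 4.201 RPM, and Leu-AAG, at 4.57 and 4.64 RPM against 8.57 and 9.36 RPM, with log2 fold changes of 1.23 ± 0.35 and 0.96 ± 0.23 (SE), both short of the adjusted threshold. They were called in 3 and 1 of 16 alternative settings.

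Among tRF3, that of the rare isoleucine tRNA Ile-TAT stood out. tRF3 Ile-TAT was at 33.8 and 43.4 RPM in Ctrl and 93.2 and 152 RPM in CC. Both CC libraries were more than 2 times the higher Ctrl library, and the log2 fold change was 1.67 ± 0.37 (SE, unadjusted p = 0.00237, adjusted p = 0.129). It was called in 7 of 15 alternative settings in which it was tested. tRF3 Thr-AGT was at 6.67 and 8.18 RPM in Ctrl and 13.2 and 18.04 RPM in CC, with a log2 fold change of 1.07 ± 0.26 (SE, adjusted p = 0.129). Proline tRNAs gave tRF3 levels for AGG, CGG and TGG that kept 1 ratio in every library, 2 AGG reads to each CGG read. The files divide reads that fit several isoacceptors among them, so these count as 1 observation, with a log2 fold change of 0.81. The alanine tRF3, all CC above Ctrl, included Ala-TGC at 575 and 828 RPM in Ctrl and 1003 and 1330 RPM in CC and Ala-AGC at 454 and 586 RPM against 723 and 1012 RPM, and neither was called. The fragment of the class other with the largest gap in RPM between CC replicates, other Arg-CCT, was at 1245 and 1310 RPM in Ctrl and 1541 and 3017 RPM in CC, with no call. other Lys-TTT and other Lys-CTT, also among the highest tRFs, overlapped between the groups, at 1498 to 1708 and 1069 to 1398 RPM in Ctrl against 1564 to 1962 and 1232 to 1567 RPM in CC.

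Reads were also counted on precursor tRNAs, the transcripts before their ends and introns are removed. All of them together stood at 42.1 and 35.9 RPM in Ctrl and 31.1 and 26.8 RPM in CC, without overlap. The 4 tested, Arg-TCT, Ile-TAT, Leu-CAA and Tyr-GTA, are the isoacceptors known for genes with introns. The precursor of Arg-TCT was at 15.8 and 14.7 reads per 1000000 clean reads in Ctrl and 9.62 and 7.46 in CC, with a log2 fold change of -0.84 ± 0.25 (SE, unadjusted p = 0.0156). That of Ile-TAT was at 1.53 and 1.11 in Ctrl and 0.636 and 0.777 in CC on the same scale, with a log2 fold change of -0.90 ± 0.31 (SE, unadjusted p = 0.0300), opposite in sign to its tRF3. Leu-CAA and Tyr-GTA overlapped between the groups, and 0 of the 4 precursors passed the adjusted threshold.

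Of 533 miRNA precursors tested with edgeR after TMM normalization, 12 rose and 10 fell at an adjusted p under 0.05, which is 2.25% and 1.88% (4.13% in all), while 44 and 50 had an unadjusted p under 0.05, or 8.26% and 9.38%. Their levels are given as counts per 1000000 of the TMM library size (CPM). DESeq2 called 16 higher and 11 lower, 21 of the 22 among them. The calls needed both CC libraries: without CC replicate 1, 0 and 0 were called, with 76 at an unadjusted p under 0.05, and without CC replicate 2, 0 and 0, with 68. Without Ctrl replicate 1, 6 and 9 were called. All 22 had CC libraries entirely above or below the Ctrl libraries, which held for 23.1% and 25.0% of all precursors tested. The total of miRNA reads did not separate the groups, at 562350 and 598830 RPM in Ctrl and 588980 and 580780 RPM in CC.

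**Figure D4:**
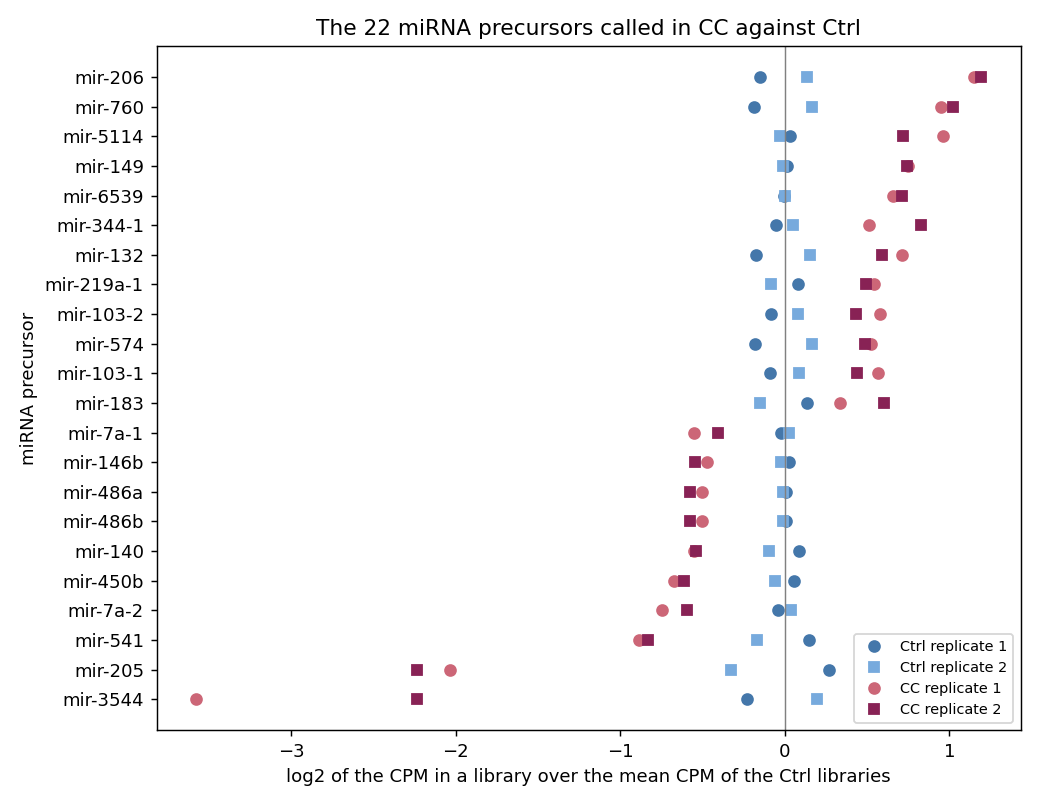
log2 of the CPM in each library over the mean of the Ctrl libraries (x axis) for the 22 miRNA precursors called (y axis). The CC points lie right of both Ctrl points for 12 precursors and left of them for 10, with mir-3544 and mir-205 farthest left.

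The list of miRNAs tied to lipid and glucose metabolism held 2 called precursors, both higher in CC. mir-103-1 stood at 899.9 and 1016 CPM in Ctrl and 1422 and 1297 CPM in CC and rose by 0.50 ± 0.10 on the log2 scale (SE, adjusted p = 0.00714). mir-103-2, with the same mature miR-103-3p, was called with it at 0.51 ± 0.10 (SE). mir-107, whose miR-107-3p has the same seed, was at 270 and 299 CPM against 356 and 352 CPM, without overlap (log2 fold change 0.31 ± 0.11 (SE), adjusted p = 0.130). Added, the 3 precursors stood at 2108 and 2366 CPM in Ctrl and 3266 and 2992 CPM in CC. In RefSeq, mir-103-1 lies within the span of Pank3 (hairpin chr11:35782396-35782481, plus strand), mir-103-2 within Pank2 (chr2:131288052-131288137, plus strand) and mir-107 within Pank1 (chr19:34820687-34820773, minus strand), genes of pantothenate kinases, which start the synthesis of coenzyme A. mir-33, within the span of Srebf2, the gene of a transcription factor for cholesterol synthesis (chr15:82198122-82198190, plus strand), was at 8.36 and 8.45 CPM in Ctrl and 10.4 and 14.5 CPM in CC (log2 fold change 0.57 ± 0.23 (SE), adjusted p = 0.199). Of the 5 precursors in this list 4 were tested, 2 were called higher and 4 lay above Ctrl in both CC libraries, beside 2.25% and 23.1% of all precursors, with a median of 0.51 beside -0.03. The 2 called are mir-103-1 and mir-103-2, which count as 1 observation as far as their reads come from the shared arm. The authors allowed 1 mismatch in annotation, so reads of miR-107-3p, which differs by 1 base, may not be fully separate either. mir-122, the liver miRNA of the list, was at 0 in 1 library and at most 0.338 CPM in the others. Outside the list, mir-5114, which lies within Scd2, the gene of a stearoyl-CoA desaturase (chr19:44303171-44303231, plus strand), rose from 5.44 and 5.22 CPM to 10.4 and 8.79 CPM (log2 fold change 0.85 ± 0.16 (SE), adjusted p = 0.00432).

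The cluster of mir-183, mir-96 and mir-182, which is known from sensory organs, is among the most abundant in these cells. mir-183 stood at 18271 and 14985 CPM in Ctrl and 21001 and 25276 CPM in CC and rose by 0.48 ± 0.11 on the log2 scale (SE, adjusted p = 0.0220). mir-182, one of the 10 most abundant precursors, was at 45596 and 41110 CPM against 57880 and 50515 CPM (log2 fold change 0.32 ± 0.10 (SE), adjusted p = 0.0903), and mir-96 at 102 and 98.6 CPM against 114 and 134 CPM. All 3 lay above Ctrl in both CC libraries and 1 was called, beside 23.1% and 2.25% of all precursors. In RefSeq the cluster lies within the long non-coding RNA gene Mirc35hg, with the mir-183 hairpin at chr6:30169668-30169737 on the minus strand.

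Other precursors rose with small errors. mir-149, within the span of Gpc1, the gene of a cell surface proteoglycan (chr1:92850378-92850443, plus strand), stood at 185 and 181.9 CPM in Ctrl and 308 and 307 CPM in CC and rose by 0.75 ± 0.13 on the log2 scale (SE, adjusted p = 0.00379). Here the replicates of each group were nearly equal. mir-6539 stood at 284 and 286 CPM against 449 and 468 CPM, mir-574 at 232 and 295 CPM against 380 and 370 CPM, and mir-132, known from neurons and as a target of the factor CREB, at 22.3 and 28.01 CPM against 41.3 and 37.9 CPM. These 3 rose by 0.69, 0.51 and 0.65 on the log2 scale. At lower levels, mir-760 rose from 3.70 and 4.74 CPM to 8.15 and 8.59 CPM, mir-344-1 from 4.64 and 4.98 to 6.86 and 8.54 CPM and mir-219a-1 from 21.9 and 19.6 to 30.2 and 29.2 CPM, the latter pair with adjusted p-values of 0.0479 and 0.0482 and calls lost in 5 and 4 of 11 alternative settings.

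Among those that fell, mir-140 was the most abundant. It is known from cartilage, lies within Wwp2, the gene of a ubiquitin ligase (chr8:107551244-107551313, plus strand), and stood at 8907 and 7848 CPM in Ctrl and 5726 and 5764 CPM in CC. It fell by 0.54 ± 0.12 on the log2 scale (SE, adjusted p = 0.0106). mir-7a-1 and mir-7a-2, which share miR-7a-5p, stood together at 123 and 128 CPM in Ctrl and 81.3 and 90.0 CPM in CC, and both were called, at -0.48 ± 0.12 and -0.67 ± 0.13 (SE), with adjusted p-values of 0.0321 and 0.00432. mir-7a-1 lost its call in 5 of 11 alternative settings, among them each library left out and no filter on low counts, and mir-7a-2 in 2 of 11, without either CC replicate. mir-7a-1 lies within the span of Hnrnpk (chr13:58392779-58392886, minus strand) and mir-7a-2 in no other annotated gene of the table used (chr7:78888277-78888373, plus strand). mir-146b, which is known to damp signalling to NF-kB, stood at 1209 and 1171 CPM in Ctrl and 857 and 816 CPM in CC and fell by 0.51 ± 0.10 on the log2 scale (SE, adjusted p = 0.00686). Of the inflammation list it was the only one of 3 called, beside 1.88% of all precursors called lower: mir-146a was at 51.4 and 47.9 CPM against 48.1 and 40.5 CPM, and mir-155 at 1166 and 1205 CPM against 1408 and 1321 CPM. mir-541, of the imprinted Mirg cluster, fell from 5.61 and 4.504 CPM to 2.74 and 2.84 CPM, and mir-3544, within Rtl1 in the same imprinted region, from 0.951 and 1.28 CPM to 0.0933 and 0.237 CPM, the level of a few reads.

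The cluster of mir-322 and mir-503 on the X chromosome, whose miRNAs are known to slow the cell cycle, had 1 called member, lower in CC. mir-450b stood at 332 and 307 CPM in Ctrl and 201 and 209.6 CPM in CC and fell by 0.64 ± 0.11 on the log2 scale (SE, adjusted p = 0.00379; hairpin chrX:53047997-53048078, minus strand). mir-503 was at 44.8 and 46.3 CPM against 34.9 and 33.9 CPM (adjusted p = 0.0903) and mir-322 at 553 and 689.9 CPM against 559 and 540 CPM, where the groups overlapped. Of the 7 tested, 7 had a negative log2 fold change under each of the scalings run, 5 lay below Ctrl in both CC libraries and 1 was called, beside 25.0% and 1.88% of all precursors, with a median of -0.30 beside -0.03.

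The lists of other miRNA families and pathways, named next, held 0 calls by edgeR. For let-7, a family of differentiated cells, the 12 members tested lay between -0.10 and 0.11 on the log2 scale, with a median of 0.04. The growth-promoting mir-17-92 cluster and its paralogs had a median of -0.11 over 12 tested, mir-15/16 a median of 0.01 over 6, mir-30 a median of -0.13 with 6 of 6 negative, mir-29 a median of 0.22 with 4 of 4 positive, and mir-23/27/24 a median of -0.12 over 6. Of all 533 precursors 277 were negative and 256 positive. Only 2 of the mir-30 members lay below Ctrl in both CC libraries and 1 of the mir-29 members above, beside 25.0% and 23.1% of all precursors. The p53 responsive list had a median of -0.11 over 7 and the miRNAs whose making SMAD proteins of the BMP and TGF-beta pathways are known to promote a median of 0.11 over 5. mir-210, the miRNA of hypoxia, was at 133 and 141 CPM in Ctrl and 120 and 131 CPM in CC. Among the 10 most abundant precursors 0 were called by the main edgeR fit, and mir-182 gained a call in 1 of 11 alternative settings. The highest were mir-10a, within the span of Hoxb3, at 139300 and 149580 CPM in Ctrl and 127420 and 115600 CPM in CC, mir-99b at 108530 and 117430 against 97311 and 88392 CPM, and mir-10b at 101240 and 111980 against 118550 and 109900 CPM. mir-22, mir-21a and mir-151 lay above Ctrl in both CC libraries, with log2 fold changes of 0.22, 0.11 and 0.13, mir-30a below it at -0.13, and mir-143 and mir-191 overlapped.

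Markers of cell types were read in the same libraries. mir-202, the miRNA known for Sertoli cells and the gonad, was at 0 in Ctrl replicate 2 and CC replicate 1 and at 0.0656 and 0.101 CPM in the remaining libraries, where 3 reads are worth 0.0800 to 0.101 CPM, so this marker of the labelled cell type was near absent in the line. The mesenchymal list was high in all libraries, with 8 of 8 tested, 0 called and sums of 76290 and 73954 CPM in Ctrl and 71810 and 92276 CPM in CC. Most of each sum was mir-143, at 50172 and 46194 CPM in Ctrl and 47332 and 67521 CPM in CC, with overlap. Of the 8, 4 lay below Ctrl in both CC libraries and 1 above, beside 25.0% and 23.1% of all precursors. Of the epithelial list, 4 of 7 were tested and 1 fell, beside 1.88% of all precursors: mir-205, at 2.29 and 1.52 CPM in Ctrl and 0.466 and 0.406 CPM in CC, by 2.10 ± 0.35 on the log2 scale (SE, adjusted p = 0.00379). The summed list was at 4.23 and 4.32 CPM in Ctrl and 2.36 and 2.64 CPM in CC, and mir-200a was at 0 in all 4 libraries. Of the red blood cell list, 3 of 4 were tested and 2 fell, beside 1.88% of all precursors. These were mir-486a and mir-486b, at 2637 and 2604 CPM together in Ctrl and 1851 and 1757 CPM in CC, which fell by 0.54 on the log2 scale. Their levels were nearly equal, and they count as 1 observation as far as they share reads. The defining mir-451a stayed at 0.262 to 0.902 CPM and mir-144 at 0 to 0.155 CPM. Of the muscle list, 3 of 6 were tested and 1 rose, beside 2.25% of all precursors: mir-206, at 1.70 and 2.08 CPM against 4.198 and 4.33 CPM, by 1.16 ± 0.25 (SE, adjusted p = 0.0103), while mir-1a-1 and mir-1a-2 were at 0 in all 4 libraries. The white blood cell list was at 3.80 and 3.46 CPM against 2.92 and 2.67 CPM, with 2 of 3 tested and 0 called. The testis germ cell list had 6 of 18 tested and 0 called, at 1006 and 996 CPM against 909 and 981 CPM, nearly all of it mir-34c, mir-34b, mir-449c and mir-449a, which are also known from ciliated cells. In such bulk libraries fewer cells of a type and less RNA per cell cannot be told apart, and the part of other cell types in the changes was not tested.

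Of 103 further features, which hold the rRNAs, the mitochondrial tRNA fragments and the classes of other databases, 1 rose, 18S rRNA, and 0 fell, 0.971% of those tested, on the scale of reads per 1000000 clean reads. By edgeR 6 higher and 5 lower had an unadjusted p under 0.05, or 5.83% and 4.85%, and DESeq2 called 2 higher (18S rRNA and the Rfam rRNA class) and 0 lower. The Rfam rRNA class (Rfam-rRNA) stood at 26.4 and 22.0 reads per 1000000 in Ctrl and 71.8 and 55.1 in CC, with a log2 fold change of 1.39 ± 0.24 (SE, edgeR adjusted p = 0.0707) that came to -0.10 among genome-matched reads. Fragments of 18S rRNA, from the small ribosomal subunit, stood at 2358 and 2495 reads per 1000000 in Ctrl and 4780 and 5009 in CC. The replicates were close, and the level rose by 1.01 ± 0.13 on the log2 scale (SE, adjusted p = 0.0260). The call needed all 4 libraries, since without any one of them 0 were called and its adjusted p reached 0.343, with log2 fold changes of 0.97 to 1.05. Fragments of 5S rRNA were at 3024 and 2900.5 against 4617 and 4361 reads per 1000000 (log2 fold change 0.60 ± 0.11 (SE), adjusted p = 0.0780) and those of 5.8S rRNA, the most abundant, at 36511 and 36099 against 43734 and 43616 (0.27 ± 0.06 (SE), adjusted p = 0.148). Neither overlapped between the groups. Matches to 45S, the precursor of the 18S, 5.8S and 28S rRNAs, were at 13376 and 10565 against 11618 and 7959, with overlap, and 28S rRNA was at 15485 and 13238 against 17959 and 10749, with overlap. Fragments of 4.5S rRNA lay below Ctrl in both CC libraries, at 2469 and 2755 against 1996 and 2177 (log2 fold change -0.32 ± 0.11 (SE), adjusted p = 0.328). The mitochondrial 12S and 16S rRNAs overlapped. Of all rRNA reads, 18S took 3.18% and 3.62% in Ctrl and 5.57% and 6.70% in CC, and 45S took 18.1% and 15.3% against 13.5% and 10.6%, where Wilson intervals were at most 0.0985 percentage points wide. Between 72.2% and 75.0% of the rRNA reads had no match to the genome.

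**Figure D5:**
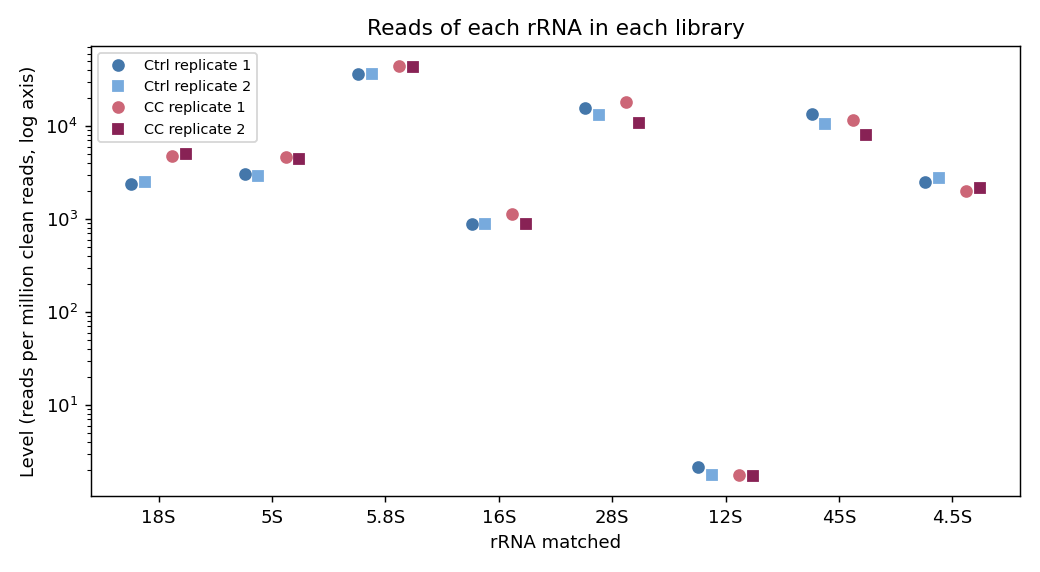
Level of the reads matched to each rRNA (reads per 1000000 clean reads, log axis) in the 4 libraries. The CC points of 18S lie at 4780 and 5009, above the Ctrl points at 2358 and 2495, whereas those of 28S, 16S, 12S and 45S overlap.

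Among the remaining types, reads annotated to snoRNAs, which guide the modification of rRNA, were at 32478 and 31632 RPM in Ctrl and 29232 and 28024 RPM in CC, a log2 ratio of -0.16 without overlap. Ensembl antisense transcripts were at 759 and 723 RPM against 646 and 605 RPM. Y RNAs, small RNAs bound by the Ro protein, were at 791 and 698 RPM against 936 and 609 RPM, and snRNAs of the spliceosome at 3138 and 2096 RPM against 2489 and 1777 RPM, both with overlap. Reads annotated as piRNA, small RNAs of the germ line, were at 218410 and 214380 RPM in Ctrl and 222360 and 234250 RPM in CC; 87.6% to 89.7% of them had no match to the genome, and their order reversed among the genome-matched reads.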

How the data were processed

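The authors trimmed adapters and quality with Trimmomatic 0.40, checked the reads with FastQC 0.12.0 and annotated short reads with SPORTS1.1, which matches rRNA, tRNA, miRNA, other and piRNA databases in that order. The deposited values are estimated counts per class, with reads that fit several subclasses divided among them and no normalization. The rows of mature tRNAs held all reads of an isoacceptor, so the class other was taken as the total less both ends. Genome-matched and unmatched reads were added and rounded for the tests.

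Groups came from the labels. Features with at least 10 reads in at least 2 TM4 libraries were tested in all 6 TM4 libraries with edgeR 4.0.16 in R 4.3.3 (Benjamini-Hochberg): tRFs scaled to clean reads outside rRNA and called at an adjusted p below 0.05 with more than a 2-fold change, miRNAs with TMM, and other features with all clean reads, called at an adjusted p under 0.05. DESeq2 1.42.0 and ComBat-seq (sva 3.50.0), both of which the authors used for their own comparisons of the cell line, served as alternatives, beside other library sizes, filters and models and each library left out. The batches that the authors gave ComBat-seq are not given in the sources used here, and the replicate number stood in for them. Features named are the called ones whose groups do not overlap (up to 12 tRFs or miRNAs and 8 others a direction, with a mean of at least 100 reads for miRNAs and others), the 10 highest tRFs and miRNAs, each rRNA, the highest mitochondrial fragments and members of the lists; other tRFs, precursor tRNAs and miRNAs in the text were named after their values were seen. The members and lists were chosen with earlier results of these data known. An SE beside an edgeR log2 fold change is the size of that change divided by the square root of its F statistic. Counting intervals and floors of 3 reads cover counting error only, since reads carry no molecular identifiers. Read lengths were not analysed here.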

Additional observations from a re-analysis of the deposited data

How the results depend on the processing

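Counts of called features moved most. For tRFs, 1 higher and 0 lower became 3 and 3 with DESeq2 and the same library sizes, 2 and 4 with DESeq2's size factors, 6 and 7 after ComBat-seq with the replicate number as batch, 5 and 8 after ComBat-seq with DESeq2 (chosen after seeing the data), and 2 and 0 when fitted without the Ang libraries. Leaving out 1 library gave 1 to 17 higher and 0 to 9 lower tRFs, with both maxima without CC replicate 1. For miRNAs, no filter gave 22 higher, and leaving out 1 library gave 0 to 12 higher and 0 to 14 lower, with 0 and 0 without either CC replicate. For other features, DESeq2 called 2 higher, and leaving out any 1 library gave 0. The labels do not say what libraries with the same replicate number share, and 2 pairs are too few to settle a pairing from the data. The deviations of replicate 1 from replicate 2 correlated between Ctrl and CC at 0.75 over tRFs, -0.000873 over miRNAs and 0.677 over other features. Between Ctrl and the Ang libraries the values were -0.271, -0.0561 and -0.182, and between CC and the Ang libraries -0.271, 0.1 and 0.0477. The settings with the replicate number as batch or block applied it to the Ang libraries too. Within each replicate number the tRF5 level was lower and the tRF3 share higher in CC, both of which overlapped between the groups. With the replicate number as a block, 2 tRFs were called higher and 0 lower, 20 miRNAs higher and 15 lower, and 1 other feature higher.

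Some values that were not called changed sign, and the cause was not tested. On the log2 scale, DESeq2's size factors and TMM over tRFs gave -0.13 and -0.20 for other Glu-CTC, -0.15 and -0.23 for other Lys-CTT and -0.24 and -0.32 for other Lys-TTT. 28S rRNA came to 0.080 with DESeq2's size factors and 0.015 per clean read outside rRNA. Among genome-matched reads, 45S rRNA came to 0.072, mt-other Val-TAC to 0.13, mt-tRF3 Trp-TCA to 0.19, mitochondrial tRNA to -0.22 and piRNA to -0.16. Per annotated read, mitochondrial tRNA came to -0.012 and miRNA to -0.020, and miRNA to -0.0033 of all clean reads. With the CCA tail counted as other, the tRF3 share differed by -0.019 and the other share by 18.1 percentage points, and among genome-matched reads the other share differed by 11.5. Leaving out 1 library gave -0.29 to 0.52 for other Glu-CTC, -0.0012 to 0.39 for other Lys-CTT, -0.035 to 0.29 for other Lys-TTT, -1.99 to 0.17 for tRF5 Lys-CTT, -0.026 to 0.46 for mir-143, -0.42 to 0.32 for 28S rRNA, -0.050 to 0.37 for mt-tRF3 Glu-TTC, -0.45 to 0.053 for mt-tRF3 Trp-TCA, -0.20 to 0.45 for mt-tRF3 Val-TAC, -0.58 to 0.0060 for mt-tRF5 Ser-GCT, -0.032 to 0.25 for cytosolic tRNA, -0.36 to 0.33 for mitochondrial tRNA and -0.034 to 0.057 for miRNA. Of the remaining values under alternatives for single features, 586 kept their direction and side of the threshold, 63 lost a call and 7 gained one.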
